A study of Mus musculus with 18 samples.

Results

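The cytosolic ribosome is built from a small 40S subunit, which holds the *Rps* proteins and reads the mRNA, and a large 60S subunit, which holds the *Rpl* proteins and joins the amino acids. The proteins are needed in equal amounts, and their genes are among the most highly transcribed in proliferating cells. Many of their mRNAs begin with a run of pyrimidines, the 5′ terminal oligopyrimidine (TOP) tract, which mTOR signalling uses to set their translation and stability.

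The cytosolic ribosomal protein genes were taken by symbol: every gene identifier present in the tables of both cell lines that was written as RPL or RPS and a number, with or without a closing A, X or L, or as RPLP0, RPLP1, RPLP2 or RPSA. The rule found 82 of 24333 identifiers, 50 for the 60S and 32 for the 40S subunit. RNA-seq was made from 2 mouse mammary tumour lines, 168FARN and 67NR, grown in DMEM with 10% FBS, each as WT, Kmt2c KO and Kmt2d KO, giving 6 groups of 3 libraries. *Kmt2c* and *Kmt2d* encode histone H3 lysine methyltransferases that act at enhancers. Knockout cells were sorted pools made by repeated transient transfection of guides against the first exon together with Cas9-GFP, and the WT columns are named as a guide control in the 168FARN table and as WT in the 67NR table. Replicates were collections of a line at nearby passages, so p-values measure the spread between collections.

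Libraries held 14359760 to 43427382 counts in 168FARN and 40951775 to 79251530 in 67NR. The targeted genes were not called lower in the libraries labelled as their knockouts: *Kmt2c* was at 56.9, 63.1 and 54.6 CPM in 67NR WT and at 88.9, 95.7 and 85.5 CPM in the libraries labelled Kmt2c KO, and *Kmt2d* was at 160, 159 and 104 CPM in 168FARN WT and at 296, 260 and 136 CPM in those labelled Kmt2d KO. *Kmt2c* in 168FARN Kmt2c KO (96.7, 89.1 and 46.9 CPM) and *Kmt2d* in 67NR Kmt2d KO (94.1, 147 and 97.9 CPM) overlapped their WT libraries (113, 106 and 44.7 CPM, and 112, 97.2 and 83.0 CPM). *Kmt2c* was called higher in 67NR Kmt2c KO (log2 difference 0.63 ± 0.14, SE, adjusted p = 0.0067). *Kmt2d* in 168FARN Kmt2d KO was at 0.71 ± 0.36 (SE, adjusted p = 1), and was called higher with the replicate number as a block (0.66, adjusted p = 0.0062). A count over the whole gene does not check a small edit in its first exon, so the labels were used as given. Of 5 epithelial markers, 4 were under 1 CPM in every 168FARN library, and none was so throughout a 67NR group. In 67NR WT libraries had a summed level of 1950 to 3238 CPM, Kmt2c KO libraries 419 to 751 CPM and Kmt2d KO libraries 720.3 to 1501 CPM. Of 4 immune markers, 2 or 3 were under 1 CPM throughout a group, with *Ptprc* at 0.148 CPM or less in every library. The summed immune level, most of it from *Cd68*, ran from 3.63 to 92.2 CPM over the 18 libraries. In 67NR 3 of 5 epithelial markers were called lower in Kmt2c KO (16.7% of all genes) and 2 in Kmt2d KO (10.3%). All 5 were lower in each when the replicate number was a block (26.2% and 20.5% of all genes). In the order WT, Kmt2c KO and Kmt2d KO, the summed level of 4 mesenchymal markers ran from 7066 to 9562, 8827 to 12364 and 9789 to 13944 CPM in 168FARN, and from 3108 to 5947, 3986 to 5159 and 3760 to 5268 CPM in 67NR. In both 67NR knockouts 2 of the 4 were called higher and 1 lower. *Zeb1*, a repressor of epithelial genes, had log2 differences of 3.86 and 3.38 (adjusted p = 4.8e-06 and 1.6e-05) in Kmt2c KO and Kmt2d KO, the intermediate filament gene *Vim* 2.43 and 2.19 (adjusted p = 0.016 and 0.034), and the fibronectin gene *Fn1* -1.97 and -1.56 (adjusted p = 0.0076 and 0.031). The 2 endothelial markers summed to 5.05 CPM at most. In each 67NR knockout 1 of 2 tested immune and 1 of 2 tested endothelial markers were called higher. Over all genes 17.5% were called higher in Kmt2c KO and 12.5% in Kmt2d KO. The part of cell state in the ribosomal protein results was not tested, and in bulk RNA a change in the cells present and a change in RNA per cell cannot be told apart.

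The start sites of the genes on which the comparisons below turn are shown because the TOP tract is the feature these genes are best known to share. Each window spans 15 bases before and 15 bases from the annotated RefSeq start (GRCm38.p6), so that the base at position 16 is the first one transcribed. Capitals mark the longest unbroken run of C and T.

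Rpl27a (chr7:109519180-109519209, plus strand): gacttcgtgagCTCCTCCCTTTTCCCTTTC
Rpl15 (chr14:18270972-18271001, minus strand): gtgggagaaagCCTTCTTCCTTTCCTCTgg
Rps6 (chr4:86857353-86857382, minus strand): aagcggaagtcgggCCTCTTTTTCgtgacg
Rps15a (chr7:118116133-118116162, minus strand): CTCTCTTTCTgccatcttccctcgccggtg
Rps26 (chr10:128626492-128626521, minus strand): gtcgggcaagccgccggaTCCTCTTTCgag
Rpl39 (chrX:37085208-37085237, minus strand): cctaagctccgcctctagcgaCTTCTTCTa
Rps3 (chr7:99483695-99483724, minus strand): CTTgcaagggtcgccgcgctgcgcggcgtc
Rps4x (chrX:102189377-102189406, minus strand): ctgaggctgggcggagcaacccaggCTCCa
Rpl10 (chrX:74270801-74270830, plus strand): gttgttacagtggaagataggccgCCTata
Rpl36a (chrX:134585639-134585668, plus strand): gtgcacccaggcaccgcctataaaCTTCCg

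The windows of *Rpl27a*, *Rpl15* and *Rps6* carried a long run across the start, and the windows of *Rps3*, *Rps4x*, *Rpl10* and *Rpl36a* carried none at the annotated start. In *Rps15a* and *Rpl39* runs of 9 and 5 pyrimidines, shorter than those in capitals, lay across the start. A start was matched for 61 of the 82 genes. A run of at least 8 pyrimidines was counted only where 8 of them in a row lay within 10 bases of the start. Of the 61 genes, 36.1% had such a run, against 9.25% of 27025 genes with an annotated start. A run of at least 5 covered the start itself in 34.4% against 11.8%. Between 250 bases before and 50 bases after the start, searched on both strands, the letters CCGGAAG, which contain the core bound by ETS factors, were in 41% against 9.93%. The letters AAGATGG, which contain the core bound by YY1, were in 14.8% against 7.28%, and TATAA was in 29.5% against 28%. CCGGAAG and AAGATGG can share the letters AAG. A match describes the letters only.

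Ribosomal protein mRNAs made up a large share of every library. On counts without RN45S, the ribosomal RNA precursor, the 82 genes took 11.8%, 11.4% and 9.03% of the counts in replicates 1, 2 and 3 of 168FARN WT, 15.1%, 14.8% and 7.42% in 168FARN Kmt2c KO, and 12.9%, 13.9% and 7.88% in 168FARN Kmt2d KO. Replicate 3 had the lowest share in each of these groups. In 67NR the shares were 6.16%, 5.32% and 8.14% in WT, 7.71%, 8.65% and 8.56% in Kmt2c KO, and 7.26%, 7.58% and 8.50% in Kmt2d KO. Replicate 3 of 67NR WT lay among the knockout libraries, and replicates 1 and 2 lay below all of them. The group means were 10.7% ± 1.51, 12.4% ± 4.34 and 11.6% ± 3.23 (SD, n = 3) in 168FARN and 6.54% ± 1.45, 8.30% ± 0.519 and 7.78% ± 0.642 (SD, n = 3) in 67NR, in the order WT, Kmt2c KO and Kmt2d KO. The genotypes of 168FARN overlapped.

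The RN45S share did not follow the same order. It was 0.458% to 4.96% of all counts in 168FARN, with the 2 highest values in replicate 1 of Kmt2c KO (4.96%) and of Kmt2d KO (3.11%). In 67NR it was 0.495% to 0.701% in WT and Kmt2c KO, and 2.45%, 0.591% and 28.7% in Kmt2d KO. The library at 28.7%, replicate 3, also had 324 CPM of *Rmrp* and 435 CPM of *Rpph1*, both RNAs without a poly(A) tail, against at most 2.16 and 2.39 CPM in 67NR WT. Replicate 1, at 2.45%, had 19.0 and 16.1 CPM of the same RNAs. The ribosomal protein share of replicate 3 was 8.50% without RN45S and 6.05% with it in the total. The part of RN45S in the results was not tested beyond its removal, which left each of the 53 named gene results on its side of the threshold.

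**Figure D1:**
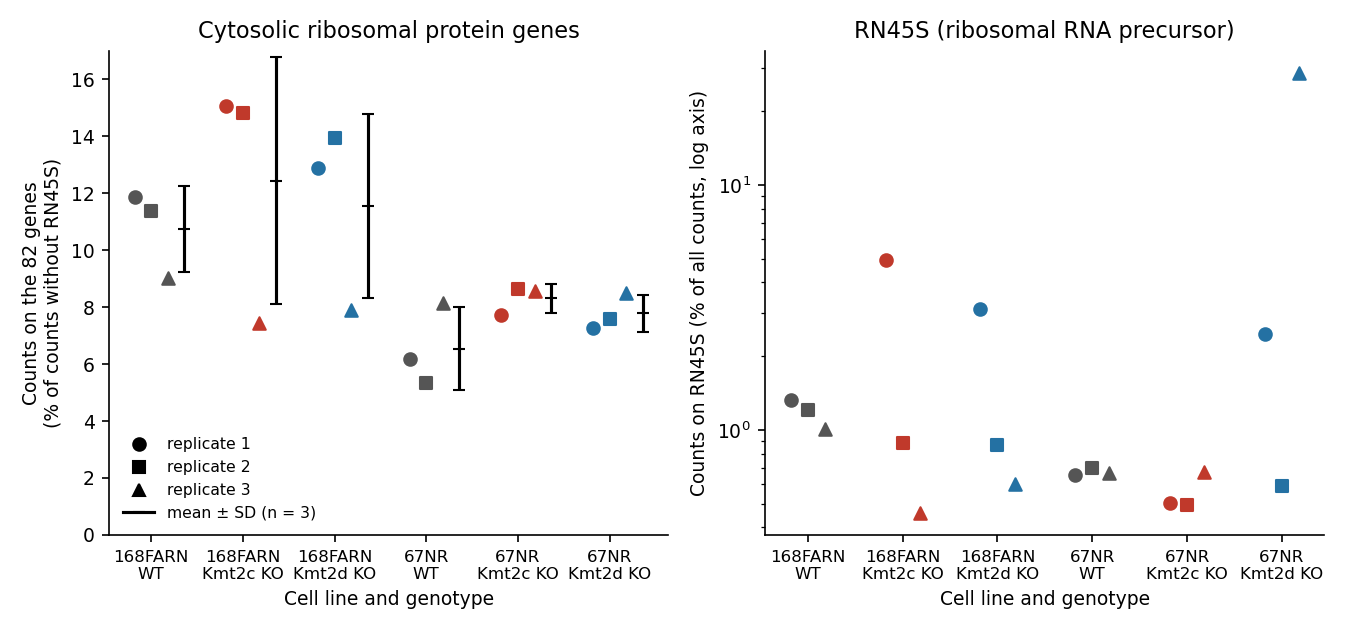
Left, the share of counts on the 82 ribosomal protein genes (percent of counts without RN45S, linear axis from 0) in each library, by cell line and genotype, with the replicate number as the symbol and the mean ± SD (n = 3) beside it; right, the share of all counts on RN45S (percent, log axis). In 168FARN the triangles of replicate 3 lie lowest in every genotype (9.03%, 7.42% and 7.88%), in 67NR WT the triangle lies highest (8.14%), and 1 library of 67NR Kmt2d KO has 28.7% RN45S.

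Levels within the family spanned several orders of magnitude in the tables. Over the 76 genes that passed the filter on low counts in each line, the median mean level in WT was 1271 CPM in 168FARN and 775 CPM in 67NR, against 27.04 and 23.7 CPM for all genes tested. Per kilobase of the longest annotated transcript (NCBIM37, the mm9 assembly), known for 79 genes, the highest in 168FARN WT were *Rps26* at 5626 ± 1530 CPM per kb (SD, n = 3), *Rpl32* at 4168 ± 835 and *Rps24* at 3892 ± 674. In 67NR WT the highest were *Rps12* at 2223 ± 936 CPM per kb (SD, n = 3), *Rpl23a* at 2198 ± 767 and *Rps26* at 2121 ± 734. The SDs of these neighbours overlapped within each line. The genes were measured in the same libraries, so that overlap does not decide their order, which was not tested. With the shortest transcript in place of the longest, *Rps26* ranked 4 of 79 in place of 1 in 168FARN, and *Rps12* ranked 9 in place of 1 in 67NR.

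At the other end, some genes whose products sit in every ribosome were listed near 0, and *Rpl29* was higher but well below the family median. *Rpl26* had 0 counts in all 18 libraries, which allows up to 3 counts in each. *Rpl30* had 130 counts over the 18 libraries and *Rpl34* had 690. *Rps27* was at 1.19 ± 0.188 CPM in 168FARN WT and 1.21 ± 0.281 CPM in 67NR WT, and *Rpl29* at 38.8 ± 3.84 and 25.5 ± 9.73 CPM (SD, n = 3). Ribosomal protein genes have many processed copies in the mouse genome, and reads that match several places can be lost or split in counting. Of the 100-base windows of its transcripts, *Rps27* had 99.6% with an exact copy elsewhere in mm9, *Rpl29* 58.6%, *Rpl30* 28.9%, *Rpl26* 27.6% and *Rpl34* 25%. Over the 79 genes with transcripts the median was 33.9%, 24 genes were above 50%, and 6 had none. *Rpl23a* and *Rps12* had 93.9% and 97.8% of windows copied, and ranked 2 and 1 of 79 per kb of the longest transcript in 67NR WT. In 168FARN WT they ranked 4 and 22. The values of genes with copies are uncertain, and the part of copies in the low values was not tested.

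The genes of tissue-restricted or paralogous forms were low. *Rpl10l*, a testis form of *Rpl10*, had 0 counts in every library, *Rpl39l* had 2 counts and *Rpl3l*, a form of striated muscle, had 16 counts over the 18 libraries. *Rps4l* had 6. *Rpl32l* was at 13.6 ± 2.69 CPM in 168FARN WT and 9.06 ± 2.90 CPM in 67NR WT (SD, n = 3). *Rps27l*, a p53 target, was the exception at 321 ± 44.4 CPM in 168FARN WT and 175 ± 64.5 CPM in 67NR WT (SD, n = 3). *Rpl10l*, *Rpl26*, *Rpl30*, *Rpl39l*, *Rpl3l* and *Rps4l* were not tested in either line, and 76 genes were.

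**Figure D2:**
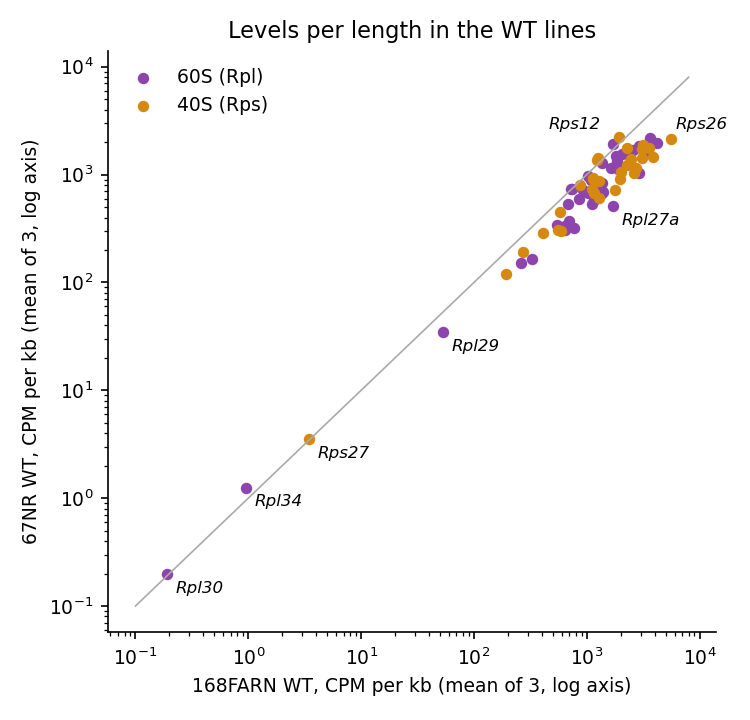
Mean level of each ribosomal protein gene in WT cells (CPM per kb of the longest transcript, mean of 3 libraries, log axes), 67NR against 168FARN, for the 75 genes above 0 in both; purple marks 60S and orange 40S genes, and the grey line is equality. Most genes lie below the line, *Rps26* is highest in 168FARN (5626 CPM per kb), and *Rpl30*, *Rpl34* and *Rps27* lie near 0.

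The first question was what the knockouts did to these genes in 67NR. In Kmt2c KO 13 of 76 members were called higher and 0 lower in the genotype-only edgeR fit. The background was 17.5% of all 13665 genes called higher and 16.7% called lower. The members' 17.1% called higher was thus near the background. At an unadjusted p under 0.05, 22 members (28.9%) were higher and 0 lower, against 43.6% of all genes in either direction. DESeq2 called 20 higher and 0 lower (background 20.7% and 20%). The median log2 difference over the members was 0.35, against -0.02 for all genes, and 61 of 76 were positive. Over the alternatives and leave-one-out fits it ran from 0.17 to 0.70. With the replicate number as a block, 32 members were higher and 1 lower (background 26.3% and 26.2%). The count called higher was 46 when WT replicate 3 was left out (59.7% of members, against 19.7% of all genes in that fit). Leaving out another library gave 5 (WT replicate 1, 6.58% against 13%), 6 (WT replicate 2, 7.79% against 13.1%), 5 (Kmt2c KO replicate 2, 6.49% against 13%) or 7 (Kmt2c KO replicate 3, 9.09% against 14.8%). In these 5 of the 6 leave-one-out fits the count moved well away from 13. The fit without Kmt2c KO replicate 1 was the other, and its count is not given here.

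The genes with the smallest p encode proteins of the small subunit. *Rps4x*, on the X chromosome (mm9 chrX:99380280-99384733, minus strand), was at 828, 869 and 830 CPM in 67NR WT and at 1612, 1591 and 1429 CPM in Kmt2c KO. The groups did not overlap, with a log2 difference of 0.87 ± 0.14 (SE, adjusted p = 0.0013). *Rps6*, whose product is phosphorylated by S6 kinase (mm9 chr4:86500564-86503316, minus strand), was at 966, 880.2 and 921 CPM in WT and at 1639, 1895 and 1615 CPM in Kmt2c KO, a log2 difference of 0.90 ± 0.15 (SE, adjusted p = 0.0015). Of its windows 94.4% have a copy elsewhere, so its value is uncertain. *Rps3*, whose product lines the mRNA entry channel and also acts in DNA repair (mm9 chr7:106626406-106632248, minus strand), was at 1308, 1162 and 1369 CPM in WT and at 1998, 2516 and 2479 CPM in Kmt2c KO, a log2 difference of 0.87 ± 0.16 (SE, adjusted p = 0.0030). No window of *Rps3* has an exact copy elsewhere. Each of *Rps4x*, *Rps6* and *Rps3* kept its call without any 1 of the 6 libraries compared.

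In the large subunit, *Rpl10*, which completes 60S maturation (mm9 chrX:71516151-71518474, plus strand), was at 1140, 1113 and 1143 CPM in 67NR WT and at 2045, 2155 and 1641 CPM in Kmt2c KO, a log2 difference of 0.78 ± 0.18 (SE, adjusted p = 0.0078). It was called without any 1 library. *Rpl9* was at 707, 637 and 899 CPM in WT and at 1087, 1369 and 1220 CPM in Kmt2c KO, and *Rpl39* at 343, 266 and 593 CPM and at 620.1, 834 and 838 CPM. Their adjusted p were 0.012 and 0.047. Also among the 13 were *Rps15a*, *Rpl15*, *Rps24*, *Rpl17*, *Rps7* and *Rpl18*, with log2 differences of 0.49 to 0.76. Over the 6 fits that each left out 1 library compared, *Rpl9* lost its call in 2, *Rps15a*, *Rpl15*, *Rps24*, *Rpl17* and *Rps7* in 4, and *Rpl18* and *Rpl39* in 5. Of the 13 called, 4 had over 50% of windows copied, against 20 of the 61 others with a value. Of the 11 with a matched start, 5 had a run of at least 8 pyrimidines near it, against 17 of 46 others.

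Several members with known roles were not called. *Rplp0* and *Rplp1* of the stalk, which recruits elongation factors, had log2 differences of 0.28 ± 0.15 and 0.36 ± 0.27 (SE), and *Rplp2* had 0.68 ± 0.28 (SE, adjusted p = 0.091, and 0.0038 with the block). *Rpl5* and *Rpl11*, whose products carry the 5S RNA and bind MDM2 when ribosome assembly fails, had 0.07 ± 0.16 and 0.15 ± 0.43 (SE). *Rps27a*, which also encodes ubiquitin, and *Rpsa*, also known as a laminin receptor, had -0.09 ± 0.15 and -0.09 ± 0.31 (SE). *Rpl22* had 0.11 ± 0.27 and *Rpl38* 0.43 ± 0.36 (SE). *Rps19*, the gene most often mutated in Diamond-Blackfan anaemia, had 0.76 ± 0.27 (SE, adjusted p = 0.056, and 0.0020 with the block). The value furthest below 0 was that of *Rps12*, which was at 928, 816 and 1704 CPM in WT and at 546, 836 and 822 CPM in Kmt2c KO (log2 difference -0.65 ± 0.32, SE, adjusted p = 0.15). It was the 1 member called lower with the block, at -0.59 (adjusted p = 0.018), and 97.8% of its windows are copied.

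The same question was put to Kmt2d KO in 67NR. Of 76 members 8 were called higher and 0 lower (background 12.5% and 10.3%, members 10.5% higher), with a median log2 difference of 0.27 against -0.02 for all genes. The median ran from 0.08 to 0.58 over the alternatives and leave-one-out fits, with 0.58 without WT replicate 3. At an unadjusted p under 0.05, 17 (22.4%) were higher and 0 lower, against 34.8% of all genes in either direction. DESeq2 called 13 higher and 0 lower (background 15.9% and 14.3%). With the block 26 were higher and 1 lower (background 21.3% and 20.5%). The count was 32 without WT replicate 3 (41.6% of members, against 14.6% of all genes in that fit). It was 1 without WT replicate 1 or 2 or Kmt2d KO replicate 1 or 2 (1.30% or 1.32%, against 8.58% to 9.18%), and 5 without Kmt2d KO replicate 3, the library with 28.7% RN45S (6.49% against 11.5%). Scaling to total counts moved the median of all genes from -0.02 to -0.21 and that of the members to 0.08. In that fit 1 member was called higher and 1 lower, and the share of all genes called was not counted. *Rps3* was at 2299, 2221 and 2405 CPM in Kmt2d KO, all above the WT values given before, with a log2 difference of 0.85 ± 0.16 (SE, adjusted p = 0.0052). It kept the call without any 1 of the 6 libraries. *Rps6* was at 1484, 1388 and 1301 CPM, a log2 difference of 0.59 ± 0.15 (SE, adjusted p = 0.018). *Rpl9* was at 1189, 1185 and 1250 CPM, a log2 difference of 0.69 ± 0.17 (SE, adjusted p = 0.020). Also called were *Rps15a*, *Rps7*, *Rpl10* and *Rpl17*, with log2 differences of 0.54 to 0.76. Over the 6 fits that each left out 1 library compared, *Rps6*, *Rpl9* and *Rps7* lost the call in 4, and *Rps15a*, *Rpl10* and *Rpl17* in 5. *Rps4x* was at 1126, 1079 and 986 CPM, a log2 difference of 0.34 ± 0.14 (SE, adjusted p = 0.12, and 0.043 with the block). The value furthest below 0 was that of *Rps28*, at 321, 231 and 505 CPM in WT and 191, 207 and 289.5 CPM in Kmt2d KO (log2 difference -0.62 ± 0.28, SE, adjusted p = 0.15, and 0.020 with the block). Both knockouts were set against the same 3 WT libraries, so their shared direction is not independent.

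**Figure D3:**
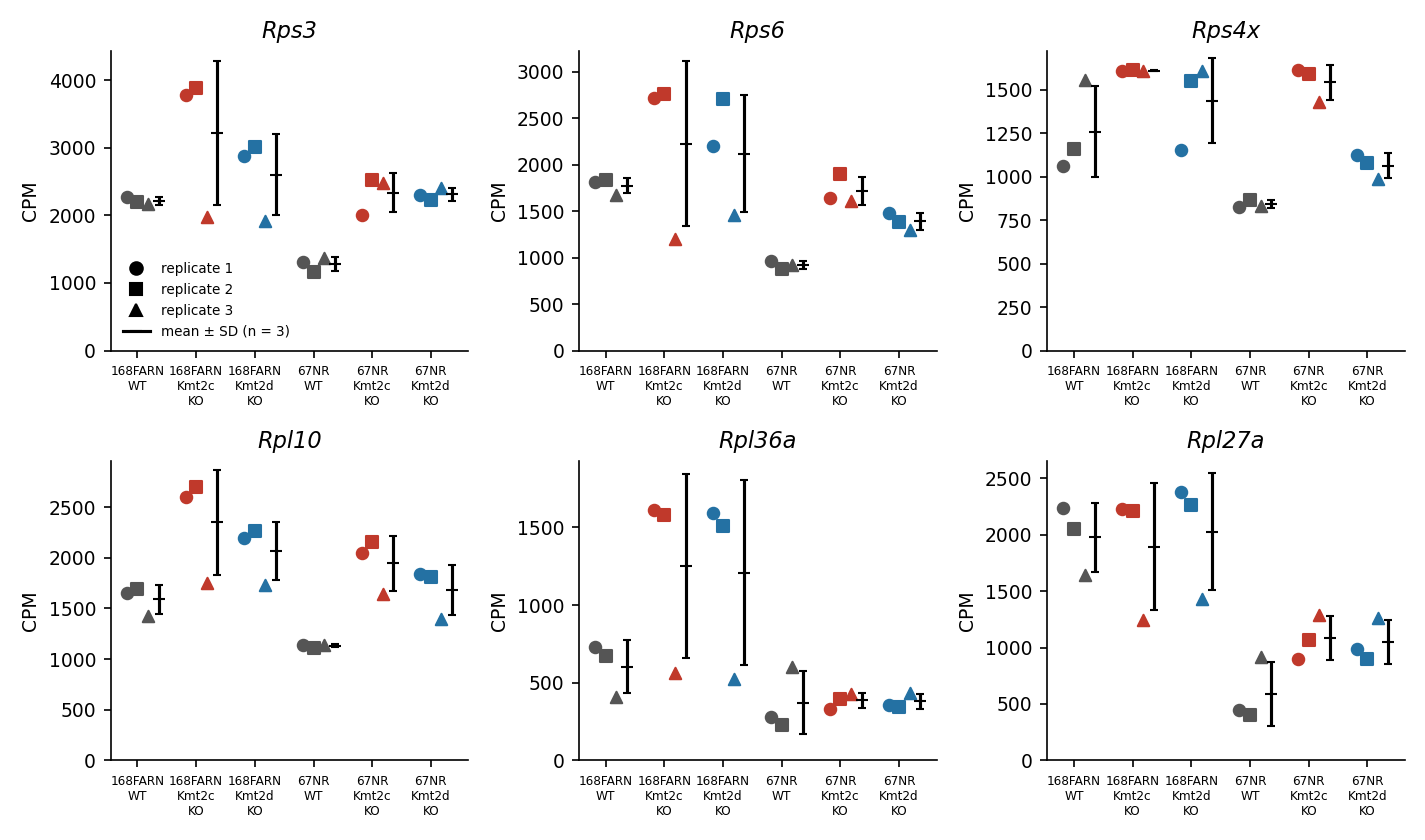
CPM in every library (linear axes from 0) of *Rps3*, *Rps6*, *Rps4x*, *Rpl10*, *Rpl36a* and *Rpl27a*, by line and genotype, with the replicate number as the symbol and the mean ± SD (n = 3) beside it. In 67NR the 3 WT values of *Rps3* (1162 to 1369 CPM) lie below all 6 knockout values (1998 to 2516 CPM), and in 168FARN the 3 values of replicate 3 of *Rpl36a* (409.6 to 566 CPM) lie below every other library of that line.

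In 168FARN the same knockouts gave 0 calls in the genotype-only fit. For Kmt2c KO against WT 0 of 76 members were called in either direction (background 0.0898% of 12253 genes higher and 0.0979% lower), and edgeR's unadjusted p was under 0.05 for 1 member, which was higher (1.32%, against 5.92% of all genes). DESeq2 called 0 (background 1.33% and 1.08%). For Kmt2d KO 0 were called (background 0.0816% and 0.0735%), edgeR's unadjusted p was under 0.05 for 0 members (5.28% of all genes), and DESeq2 called 0 (background 1.03% and 1.06%). The median log2 differences were 0.26 and 0.14, with 65 and 62 of 76 members positive, and ran from 0.12 to 0.56 and from 0.02 to 0.39 over the alternatives and leave-one-out fits, highest without replicate 3 of the knockout. With the block 2 members were higher in Kmt2c KO (background 5.51% higher and 5.17% lower) and 1 in Kmt2d KO (background 3.3% and 3.35%), and 0 lower.

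The difference depended on the replicate number. Within replicate 1 and within replicate 2 the members were higher in Kmt2c KO than in WT, with median log2 differences of 0.42 and 0.52 and 69 and 71 of 76 members higher. Within replicate 3 the median was -0.33 and 12 of 76 were higher. For Kmt2d KO the medians were 0.20, 0.35 and -0.17, with 59, 67 and 5 of 76 higher. In 67NR no replicate number reversed the median: it was 0.36, 0.83 and 0.02 for Kmt2c KO and 0.31, 0.61 and 0.05 for Kmt2d KO, with replicate 3 near 0. All genes tested had a median near 0 in each of these comparisons. With replicates 1 and 2 alone, 57 members were higher and 1 lower in 168FARN Kmt2c KO (background 16% and 13.5%), and 36 higher and 0 lower in Kmt2d KO (background 11.4% and 9.75%). In 67NR the counts were 54 higher and 1 lower, and 48 higher and 1 lower, of 77 tested (background 30.2% and 30.2%, and 25.9% and 25.4%).

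**Figure D4:**
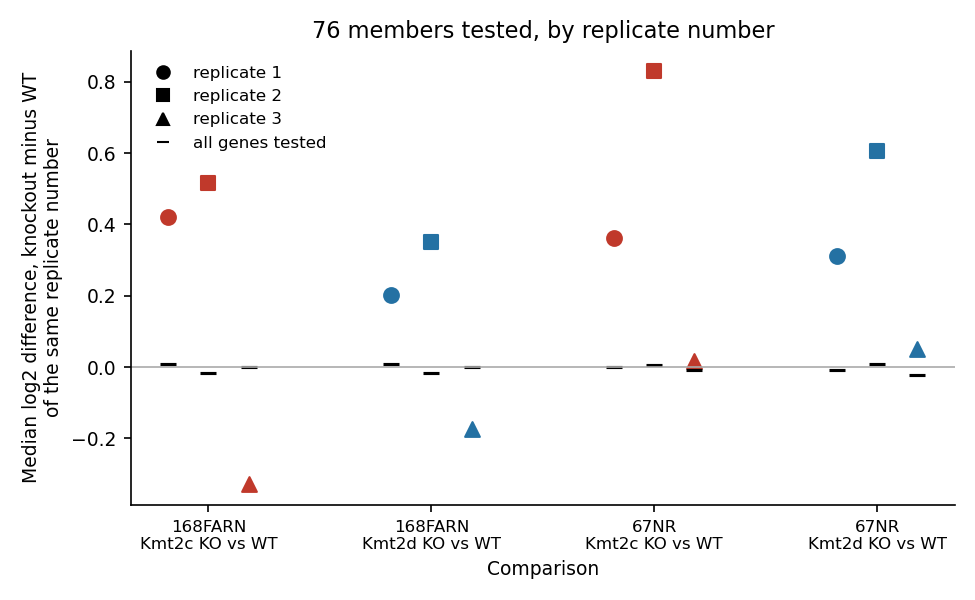
Median log2 difference of the 76 members between a knockout library and the WT library of the same replicate number, for each comparison (linear axis), with the replicate number as the symbol and short black lines for all genes tested. In 168FARN replicates 1 and 2 lie above 0 (0.20 to 0.52) and replicate 3 below (-0.33 and -0.17), and in 67NR replicate 3 lies near 0 (0.02 and 0.05).

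Seen within a genotype, replicate 3 of 168FARN was lower than the mean of replicates 1 and 2 by a median log2 of -0.23 for WT, -1.09 for the Kmt2c knockout and -0.75 for the Kmt2d knockout, with 54, 70 and 64 of 76 members lower. In 67NR it was higher, by 0.73, 0.19 and 0.33, with 71, 60 and 63 of 76 higher. Replicate 3 thus lay lower in 168FARN, furthest in Kmt2c KO, and higher in 67NR, furthest in WT. The first principal component of the members over the 9 libraries of a line held 88% of their variance in 168FARN and 73.5% in 67NR, with 66 and 73 of 76 members on the same side. Length of the longest transcript was weakly related across genes to these shifts and to the knockout differences (Spearman's rho from -0.34 to 0.32 in 15 relations over 74 or 75 genes), as were GC content (-0.22 to 0.23) and the share of copied windows (-0.21 to 0.15). Genes are not independent replicates, and these are descriptions.

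Within the line the most variable tested members were *Rpl32l* (SD of log2 CPM 0.99 over 9 libraries, 7.497 to 49.0 CPM) and *Rpl39* (0.86, 556 to 2441 CPM) in 168FARN, and *Rpl37a* (0.63, 231 to 804 CPM) and *Rpl27a* (0.60, 405 to 1285 CPM) in 67NR. The least variable were *Rpl7* (0.13, 1574 to 2032 CPM) and *Rps9* (0.13, 1490 to 1885 CPM) in 168FARN, and *Rpl3* (0.08, 904 to 1108 CPM) and *Rps27a* (0.11, 952 to 1260 CPM) in 67NR. *Rpl36a* was at 732, 669.7 and 409.6 CPM in 168FARN WT, while Kmt2c KO had 1608, 1579 and 566 CPM and Kmt2d KO had 1592, 1507 and 524 CPM. Replicates 1 and 2 of each knockout were above every WT library, and replicate 3 was below WT replicates 1 and 2. Its log2 differences from WT, Kmt2c KO first, were 1.05 ± 0.53 and 1.00 ± 0.53 (SE, adjusted p = 0.96 and 1). With the block it was 0.93 ± 0.16 (adjusted p = 0.0045) and 0.87 ± 0.16 (adjusted p = 0.0077). *Rpl10* was at 1649, 1694 and 1422 CPM in 168FARN WT and at 2601, 2697 and 1755 CPM in Kmt2c KO, and all 3 knockout values were above all 3 WT values. Its log2 difference was 0.57 ± 0.23 (SE, adjusted p = 0.79) and 0.55 ± 0.12 with the block (adjusted p = 0.016). *Rpl36a* and *Rpl10* are 2 of the 4 members on the X chromosome, with *Rpl39* and *Rps4x*. Of their windows 73.5% and 70.1% are copied.

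**Figure D5:**
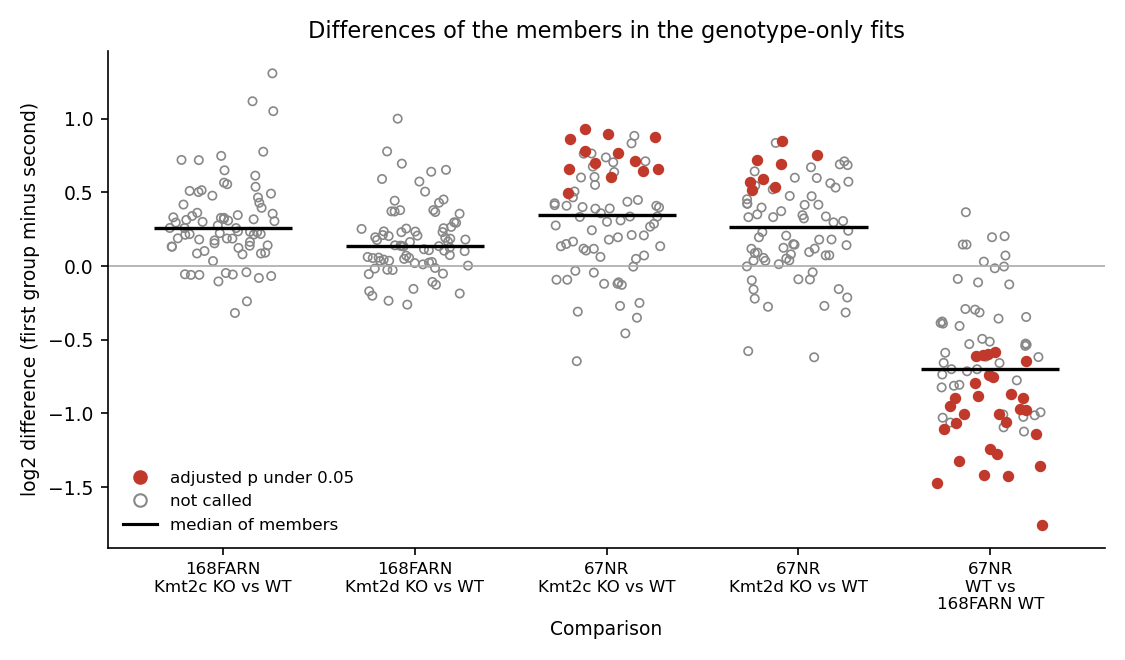
Log2 difference of every tested member (points, jittered sideways) in the 4 knockout comparisons and between the WT lines, from the genotype-only edgeR fits, with filled red points for an adjusted p under 0.05 and black lines for the member medians. The calls are 0 in both 168FARN comparisons, 13 and 8 higher in 67NR, and 29 lower in 67NR WT against 168FARN WT, with medians of 0.26, 0.14, 0.35, 0.27 and -0.70.

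Both subunits had positive medians in every knockout comparison. In 67NR the median log2 difference was 0.41 for 31 genes of the 40S and 0.29 for 45 of the 60S in Kmt2c KO, and 0.35 and 0.15 in Kmt2d KO, with 7 and 6, and 5 and 3, called higher. In 168FARN the medians were 0.22 and 0.28 in Kmt2c KO and 0.20 and 0.12 in Kmt2d KO. The difference between the subunits was not tested.

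The knockouts were also compared with each other. No member was called between Kmt2c KO and Kmt2d KO in 168FARN or in 67NR by edgeR (background 0.0816% higher and 0.0898% lower in 168FARN, 0.0293% and 0.629% in 67NR), with 0 and 1 at an unadjusted p under 0.05 (5.03% and 10.9% of all genes). DESeq2 called 0 in 168FARN (background 1.14% and 0.856%) and 1 higher in 67NR (background 0.918% and 3.12%). The median log2 differences were 0.11 and 0.07. With replicates 1 and 2 alone 13 members were higher in Kmt2c KO in 168FARN (background 8.56% higher and 8.44% lower) and 8 in 67NR (background 9.26% and 12.9%), and 0 lower. With the block 0 were called in 168FARN (background 3.48% and 3.14%, with 4 members and 22% of all genes at an unadjusted p under 0.05) and 1 in 67NR (background 1.19% and 4.96%). There *Rps4x* was higher in 67NR Kmt2c KO than in Kmt2d KO, by 0.54 ± 0.12 (SE, adjusted p = 0.023). The groups did not overlap, at 1429 to 1612 CPM against 986 to 1126 CPM.

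Whether a knockout acted differently in the lines was tested as an interaction over all 18 libraries. For *Kmt2c* 0 of 77 members were called in either direction (background 6.42% and 5.08%), with 0 at an unadjusted p under 0.05 (23.8% of all genes) and 0 called by DESeq2 (background 9.17% and 8.36%). For *Kmt2d* 0 were called (background 4.98% and 2.31%), with 0 at an unadjusted p under 0.05 (18.8% of all genes) and 0 called by DESeq2 (background 7.49% and 4.6%). For *Rps3* the interaction was 0.25 ± 0.35 for *Kmt2c* (SE, adjusted p = 0.78) and 0.56 ± 0.35 for *Kmt2d* (SE, adjusted p = 0.45), so its calls in 67NR and their absence in 168FARN are not shown to differ. With the replicate number as a block within each line, 4 were higher and 2 lower for *Kmt2c* (background 17.6% and 18.7%) and 5 higher and 1 lower for *Kmt2d* (background 15% and 14%). In the block fit *Rpl27a* had the largest positive value, 0.98 ± 0.22 for *Kmt2c* (SE, adjusted p = 0.0020) and 0.84 ± 0.22 for *Kmt2d* (SE, adjusted p = 0.0079). It was at 443, 405 and 913 CPM in 67NR WT and at 899, 1063 and 1285 CPM in Kmt2c KO, while in 168FARN it was at 2233, 2049 and 1642 CPM in WT and at 2229, 2206 and 1246 CPM in Kmt2c KO. *Rpl36a*, called lower for both in the block fit, had -0.85 for *Kmt2c* (adjusted p = 0.028) and -0.80 for *Kmt2d* (adjusted p = 0.045) there. Without the block *Rpl27a* had 0.86 ± 0.46 and 0.74 ± 0.46 (SE, adjusted p = 0.29 and 0.45). With replicates 1 and 2 alone the counts were 10 higher and 12 lower (background 21.3% and 21.7%), and 13 higher and 10 lower (background 19.5% and 17.1%).

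The lines themselves were compared in WT. In 67NR WT against 168FARN WT 29 of 77 members were called lower and 0 higher, which was 37.7% against a background of 15.6% lower and 20.9% higher over 13882 genes. At an unadjusted p under 0.05, 39 (50.6%) were lower and 0 higher, against 44.7% of all genes in either direction. DESeq2 called 38 lower (background 18.6% lower and 22.8% higher). With replicates 1 and 2 alone 67 were lower and 0 higher (background 32.5% and 36.4%). The median log2 difference was -0.70, against 0.03 for all genes, and 70 of 77 members were negative. The median ran from -1.05 to -0.55 over the alternatives and leave-one-out fits. The count called lower was 47 without 67NR WT replicate 3 (61% of members, against 16.3% of all genes in that fit), and 14 and 17 without 168FARN WT replicates 1 and 2 (18.2% against 13%, and 22.1% against 12.9%). It was 9 without 67NR WT replicate 1 and 8 without 67NR WT replicate 2 (11.7% against 12.1%, and 10.4% against 12%). In these 5 of the 6 leave-one-out fits the count moved well away from 29. The fit without 168FARN WT replicate 3 was the other, and its count is not given here. Line, control construct and collection went together in this comparison and cannot be told apart. *Rpl27a* (mm9 chr7:116662661-116665881, plus strand) had a log2 difference of -1.76 ± 0.34 (SE, adjusted p = 0.00067), and its WT values given above did not overlap. *Rpl15* was at 1582, 1519 and 1317 CPM in 168FARN WT and at 553, 487 and 796 CPM in 67NR WT, a log2 difference of -1.27 ± 0.24 (SE, adjusted p = 0.00054). *Rps26* was at 3026, 2781 and 1738 CPM and at 863, 671 and 1310 CPM, a log2 difference of -1.42 ± 0.32 (SE, adjusted p = 0.0027). All 3 were called without any 1 of the 6 libraries. *Rpl5*, *Rplp0* and *Rps27a* lay near 0, at -0.0032 ± 0.24, -0.02 ± 0.18 and 0.20 ± 0.18 (SE, adjusted p = 1, 0.96 and 0.41).

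Genes that make and use ribosomes were counted from the same fits. Of 60 tested genes of rRNA synthesis and ribosome assembly, 1 rose and 12 fell in 67NR Kmt2c KO and 1 rose and 4 fell in Kmt2d KO, with medians of -0.13 and -0.21. That is 1.67% and 20% of the list in Kmt2c KO and 1.67% and 6.67% in Kmt2d KO, beside 17.5% higher and 16.7% lower, and 12.5% and 10.3%, over all genes. *Riok1*, a kinase of late 40S maturation, fell by 1.02 on the log2 scale in Kmt2c KO (adjusted p = 0.00049) and by 0.75 in Kmt2d KO (adjusted p = 0.0043). *Rrp1b*, a nucleolar protein, fell by 1.21 (adjusted p = 0.0015) and by 1.06 (adjusted p = 0.0048). *Utp14a*, of the 40S processome, rose by 1.03 (adjusted p = 0.0014) and 0.93 (adjusted p = 0.0041). Of 41 translation factors, 1 rose and 2 fell, and 0 rose and 2 fell, among them *Eif3f*, a subunit of initiation factor 3, which rose by 0.73 in Kmt2c KO (adjusted p = 0.0070). Of 76 mitochondrial ribosomal protein genes, 1 rose and 11 fell in Kmt2c KO and 1 rose and 2 fell in Kmt2d KO, with medians of -0.19 and -0.14. The translation factors thus had 2.44% higher and 4.88% lower, and 0% and 4.88%, and the mitochondrial genes 1.32% and 14.5%, and 1.32% and 2.63%, beside the same background. *Mrpl24* fell by 0.90 in Kmt2c KO (adjusted p = 0.0017). With the block 6 assembly genes rose and 22 fell in Kmt2c KO (10% and 36.7%, background 26.3% and 26.2%), and 2 and 18 in Kmt2d KO (3.33% and 30%, background 21.3% and 20.5%). The translation factors then had 6 higher and 6 lower (14.6% each), and 4 and 7 (9.76% and 17.1%), and the mitochondrial genes 5 and 20 (6.58% and 26.3%), and 5 and 10 (6.58% and 13.2%).

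In 168FARN 0 genes of these lists were called by edgeR in either knockout. With the block in Kmt2c KO, 0 assembly genes rose and 2 fell (0% and 3.33%). Of translation factors 2 rose and 1 fell (4.88% and 2.44%), and of mitochondrial genes 1 rose and 7 fell (1.32% and 9.21%). Over all genes 5.51% were higher and 5.17% lower in that fit. In Kmt2d KO 2 assembly genes rose and 0 fell (3.33% and 0%), and 1 translation factor rose and 0 fell (2.44% and 0%). Of mitochondrial genes 1 rose and 3 fell (1.32% and 3.95%), beside 3.3% and 3.35% of all genes. *Eif1ax*, an initiation factor, had log2 differences of 0.76 (adjusted p = 0.0055) and 0.71 (adjusted p = 0.0094) with the block. Of 8 tested relatives with other symbols, *Rpl36al*, a retrocopy of the X-linked *Rpl36a*, rose by 0.83 in 67NR Kmt2c KO (adjusted p = 0.0022) and by 0.69 in Kmt2d KO (adjusted p = 0.0087), and *Rack1*, a scaffold on the 40S head, rose by 0.47 in Kmt2c KO (adjusted p = 0.026). *Rsl24d1*, which assembles the 60S, fell by 0.56 (adjusted p = 0.021). With the block 2 relatives were higher and 1 lower in 67NR Kmt2c KO (25% and 12.5%, background 26.3% and 26.2%). In 67NR Kmt2d KO 2 were higher and 3 lower (25% and 37.5%, background 21.3% and 20.5%). Between the WT lines 13 mitochondrial ribosomal protein genes were lower and 3 higher in 67NR, 6 assembly genes lower and 5 higher, and 7 translation factors lower and 6 higher. These were 17.1% lower and 3.95% higher, 10% and 8.33%, and 17.1% and 14.6%, beside 15.6% and 20.9% of all genes. Of 13 tested snoRNA hosts and RNAs without a poly(A) tail, the genotype-only fit called 0 in 67NR Kmt2c KO (background 17.5% and 16.7%). In 67NR Kmt2d KO 3 rose (23.1%, background 12.5%): *Rn45s*, *Rmrp* and *Rpph1*, all highest in replicate 3. In replicate 1 they were also above every 67NR WT library, with *Rmrp* at 19.0 and *Rpph1* at 16.1 CPM. In replicate 2 they were not. None of *Rn45s*, *Rmrp* and *Rpph1* kept its call with the block (adjusted p = 0.17, 0.14 and 0.12). In the block fit *Snhg12*, *Snhg3* and *Malat1* were higher in both 67NR knockouts, by 0.63, 0.61 and 0.58 in Kmt2c KO (adjusted p = 0.0026, 0.0024 and 0.0073) and by 0.90, 0.39 and 0.55 in Kmt2d KO (adjusted p = 0.00038, 0.035 and 0.013), and *Gas5* fell by 0.45 in Kmt2c KO (adjusted p = 0.0077). The 3 higher were 23.1% of the 13 in each knockout, near the 26.3% and 21.3% of all genes. The 1 lower in Kmt2c KO was 7.69%, against 26.2% of all genes.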

How the data were processed

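RNA-seq was analysed from 18 libraries, 3 of each genotype of 168FARN and 67NR. The deposited values were gene counts, 1 table per line, which the authors made from poly(A)-selected, strand-specific libraries sequenced as pairs and aligned with STAR to mm9 in the VIPER pipeline. How the counter handled strand is not given in the sources used here. All 18 columns matched their labels and 0 were left over. Counts ran from 14359760 to 43427382 per library in 168FARN and from 40951775 to 79251530 in 67NR. The upper bound given for a gene with 0 counts covers counting error only. Printed SDs and SEs include the spread between libraries.

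The tables were joined on 24333 shared symbols. The quasi-likelihood test of edgeR 4.0.16 in R 4.3.3 (limma 3.58.1) was fitted on all genes that passed filterByExpr (12253 in 168FARN, 13665 in 67NR, 13882 in both), with TMM factors and genotype as the factor. Line comparisons used the 9 libraries of the line, and the interactions and the WT comparison used all 18. A gene was called at a Benjamini-Hochberg adjusted p under 0.05, two-sided, over all genes tested. CPM are scaled by each line's TMM factors, and log2 CPM had 0.5 added. An exact permutation test of 3 against 3 cannot go below p = 0.1 and was not used. Alternatives were DESeq2 1.42.0, other scalings and filters, RN45S removed, another call rule, the replicate block, replicates 1 and 2 alone, and each library left out. Scripts were tested on simulated data.

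Replicate numbers were checked as pairs through the correlation of deviations from the group means. Libraries numbered 3 correlated with each other at 0.87 to 0.92 (168FARN) and 0.63 to 0.82 (67NR). With numbers 1 and 2 they were at -0.88 to -0.77 and -0.75 to -0.53. Numbers 1 and 2 gave 0.73 to 0.82 and 0.47 to 0.59 within a number, and 0.70 to 0.80 and 0.38 to 0.70 between them. These ranges overlap, so the check set replicate 3 apart and did not show that numbers 1 and 2 pair the libraries. The block takes its numbers from the labels. The study's methods treat each collection time as a batch when heatmaps are drawn, and its differential expression fit had genotype as the factor. No library was a copy of another.

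Named genes were up to 3 members called in each direction with the smallest p per comparison, the 3 highest and lowest WT levels per length, members ending in L, a list of members with known roles (the stalk proteins, *Rpsa*, *Rps27a*, *Rpl5*, *Rpl11*, *Rps6*, *Rpl22*, *Rps4x*, *Rpl10*, *Rps19*, *Rpl38* and *Rpl41*), the 2 most and 2 least variable members per line, RN45S, and up to 3 genes per list. Other members were named after their values were seen. Not every called member is reported by name here. The members and lists were chosen with earlier results of these data known. Start site sequences are from RefSeq (GRCm38.p6), and lengths, positions and copies from NCBIM37. A window counted as copied where its 100 bases occur exactly elsewhere in that genome.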

Additional observations from a re-analysis of the deposited data

How the results depend on the processing

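With the replicate number as a block, 2 members were called higher in 168FARN Kmt2c KO and 1 in Kmt2d KO, 32 higher and 1 lower in 67NR Kmt2c KO, 26 and 1 in 67NR Kmt2d KO, 1 higher in 67NR Kmt2c KO than in Kmt2d KO, 4 higher and 2 lower for the *Kmt2c* interaction, and 5 and 1 for that of *Kmt2d*. DESeq2 with the block called 7 higher and 1 lower, 2 higher, 41 and 1, and 29 and 1 in the 4 knockout comparisons in that order. With replicates 1 and 2 alone the counts were 57 and 1, 36 and 0, 54 and 1, and 48 and 1, then 13 and 8 higher between the knockouts of 168FARN and 67NR, 10 and 12, and 13 and 10, for the interactions, and 67 lower between the WT lines. DESeq2 without the block called 20 and 13 higher in 67NR and 1 between its knockouts. The fit of the 6 libraries compared called 7 and 3 higher in 67NR, and total-count scaling called 1 higher and 1 lower in 67NR Kmt2d KO. The shares of all genes are given above for the edgeR block, replicates 1 and 2 alone and DESeq2 without the block. For the other fits here that share was not counted, so their counts cannot be set against a background. The cause of these shifts was not tested.

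Leaving out 1 library gave 5 to 46 members higher in 67NR Kmt2c KO, 1 to 32 in 67NR Kmt2d KO, 8 to 47 lower between the WT lines, and 0 to 1 higher for the *Kmt2c* interaction. The highest of each of these came without 67NR WT replicate 3. The other counts stayed at 0. With RN45S kept in the total the member share of 67NR Kmt2d KO was 6.89%, and with the shortest transcript the median levels per kb were 1830 CPM in 168FARN WT and 1180 CPM in 67NR WT. Of the settings other than leaving out 1 library, 5 were run for 53 named gene values and 5 for 24. The call was lost for 11 of 24 in the fit of the 6 libraries compared, 8 of 24 with total counts, 3 of 24 with no filter, and 1 of 53 each with DESeq2 size factors and with TMM factors from other genes. It was gained for 3 of 24 with the block in edgeR and in DESeq2, and 3 of 53 with replicates 1 and 2 alone. The 3 were *Rpl36a* in both 168FARN knockouts and *Rpl10* in 168FARN Kmt2c KO, uncalled in the genotype-only fit. They were among the named values because the edgeR block called them, so their gain there was fixed by the choice. In these settings 0 reversed, and none changed sign in the 6 fits that each left out 1 library. The median over the members moved by more than the SD of its within-replicate values in 10 of 18 fits for the *Kmt2d* interaction (-0.09 to 0.31), 2 of 18 for the *Kmt2c* interaction (-0.16 to 0.30), 1 of 16 for 67NR Kmt2d KO against WT (0.58 without 67NR WT replicate 3) and 1 of 12 between the knockouts of 168FARN (0.37 without Kmt2c KO replicate 3). Counting depth limits *Rpl26*, *Rpl30*, *Rpl34* and the paralogs listed near 0.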
